A study of Homo sapiens with 20 samples.

Results

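NKX2-1, NKX2-8 and PAX9 lie side by side on chromosome 14, and their contacts with captured poised enhancers are described here across 10 conditions of human embryonic stem cells. The contacts were all pairs within the chromosome whose bait (the captured fragment) or other end overlapped a gene body widened by 1 kb on GRCh38. This gave 127 contacts of 766138 in all, or of 182303 that lie within a chromosome. NKX2-1 had 25 of them, NKX2-8 had 16 and PAX9 had 99, and 13 contacts joined NKX2-1 or NKX2-8 to PAX9 and count for both genes. The 3 genes were chosen by their called contacts in these same data, so their counts are given as a description and no test was run on them.

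NKX2-1 is a homeodomain transcription factor that sets the identity of the ventral forebrain, the thyroid and the lung. NKX2-8 is a homeodomain factor of the same family, and PAX9 is a paired-box factor needed for the pharyngeal pouches and the teeth. Genes of this kind are silent in pluripotent cells and carry Polycomb marks there. Poised enhancers are distal elements that carry the same marks before their genes are used, and Polycomb-bound regions are known to touch each other in the nucleus.

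Poised Enhancer Capture Hi-C digests crosslinked chromatin with DpnII, ligates neighbouring ends and enriches the junctions that hold a bait. The 20 libraries were 2 from each of 10 conditions. Naive cells of HNES1, a line of human embryonic stem cells, were taken in medium with the inhibitors PD0325901, Gö6983 and XAV939 and with LIF. The transition was sampled on days 1, 3, 5, 7, 10 and 14 after a change to medium with XAV939 alone. Naive stocks were kept on mouse feeder cells and taken off them before the transition. Day 14 HNES1 cells were differentiated to neuroectoderm (NE) for 10 days with A8301 and LDN193189 and sorted as CD56-positive and EpCAM-negative. Other day 14 cells were differentiated to definitive endoderm (DE) with Activin A, CHIR99021, FGF2, PI-103, BMP4 and heparin, with LDN193189 in a later step, and whether they were sorted is not known here. H9, a primed human embryonic stem cell line, was grown in its own medium, so cell line and culture cannot be told apart when it is set beside HNES1. All cells were of these 2 lines, and no expression was measured, so the labelled cell types were not checked against marker genes.

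The deposited value was 1 CHiCAGO interaction score per contact and condition, which rises as a pair is ligated more often than its distance and its fragments would give. Both libraries of a condition share 1 score, so there was no spread between replicates. Neighbouring values in any order of conditions below could therefore not be compared with their error. Scores of 5 or more counted as calls. Every contact in the matrix reached 5 in at least 1 condition, so a contact is listed because of the condition where it is high. Read depth was unknown. As background, naive cells had 10.0% of all contacts within chromosomes called, and days 1, 3, 5, 7, 10 and 14 had 10.1%, 12.4%, 11.7%, 10.2%, 10.3% and 11.2%. The share was 13.0% in H9, 17.9% in NE and 16.2% in DE.

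The positions of the genes set what could be measured. NKX2-1 (chr14:36516397-36520232, minus strand) held none of the 28903 baits. Each of its 25 contacts therefore had the gene in the other end and a distant bait, labelled as a poised enhancer. NKX2-8 (chr14:36580004-36582614, minus strand) lay 59.8 kb away and held 4 baits. PAX9 (chr14:36657568-36679362, plus strand) lay 137 kb from NKX2-1 and held 8 baits with the 1 kb margin. Of these, chr14:36656018-36656569 and chr14:36656570-36656989 end before its body and entered only through the margin. Other ends were windows with a median length of 5344 bp, while baits were 133 to 1750 bp long. Exon and intron positions were not used here.

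The promoter sequence of NKX2-1 shows where the capture divides that gene. RefSeq promoters (GRCh38.p14, 250 bases before to 50 after the annotated start) matched all 3 genes, and the first entry of each is printed 5′ to 3′ on the gene's strand with DpnII sites (GATC) in capitals. The second NKX2-1 entry is printed because it held both NKX2 core motifs that were searched. Its capitals mark the NKX2 core CAAGTG, then the FOX core TGTTTAC and, near its end, the other NKX2 core as CTCAAG (the reverse strand of the letters CTTGAG).
NKX2-1, first entry, chr14:36520183-36520482: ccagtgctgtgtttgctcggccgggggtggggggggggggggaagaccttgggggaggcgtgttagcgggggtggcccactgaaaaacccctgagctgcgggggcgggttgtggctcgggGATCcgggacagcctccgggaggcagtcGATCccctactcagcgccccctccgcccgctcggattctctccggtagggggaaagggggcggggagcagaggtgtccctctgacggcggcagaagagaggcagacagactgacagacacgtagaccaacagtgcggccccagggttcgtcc
NKX2-1, second entry, chr14:36519507-36519806: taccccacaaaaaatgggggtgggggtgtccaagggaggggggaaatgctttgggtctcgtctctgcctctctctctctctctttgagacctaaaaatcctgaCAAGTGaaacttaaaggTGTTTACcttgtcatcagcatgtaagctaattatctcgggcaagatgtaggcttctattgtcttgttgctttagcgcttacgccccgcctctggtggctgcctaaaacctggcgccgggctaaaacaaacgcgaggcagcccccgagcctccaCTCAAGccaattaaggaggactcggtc
NKX2-8, chr14:36582565-36582864: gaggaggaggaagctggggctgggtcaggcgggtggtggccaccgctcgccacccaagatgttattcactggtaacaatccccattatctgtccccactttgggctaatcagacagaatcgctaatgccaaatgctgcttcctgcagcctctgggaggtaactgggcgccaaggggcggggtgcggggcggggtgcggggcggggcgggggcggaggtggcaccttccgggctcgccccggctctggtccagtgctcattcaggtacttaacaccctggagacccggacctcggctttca
PAX9, first entry, chr14:36657318-36657617: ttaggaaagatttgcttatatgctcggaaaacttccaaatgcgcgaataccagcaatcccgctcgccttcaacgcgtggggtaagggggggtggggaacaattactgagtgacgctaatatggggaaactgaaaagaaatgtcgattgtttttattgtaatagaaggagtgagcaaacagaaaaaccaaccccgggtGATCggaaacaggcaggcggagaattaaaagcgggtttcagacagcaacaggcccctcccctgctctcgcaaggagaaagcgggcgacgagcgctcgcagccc

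The first NKX2-1 promoter held 2 DpnII sites, and the one at chr14:36520331-36520334 starts a deposited window. That site divides NKX2-1 into a window over the gene body (chr14:36514749-36520330) and a window just upstream of it (chr14:36520331-36525674), which begins 99 bp from the end of the annotated body. The upstream window entered only through the 1 kb margin. The other NKX2-1 site and the PAX9 site (chr14:36657515-36657518) start no fragment listed for the 3 genes, and the NKX2-8 promoter held no site. GATC was found in 41.7% of the 35116 promoters of this length. CpG dinucleotides numbered 21 in the first NKX2-1 promoter, 17 in that of NKX2-8 and 19 in the first of PAX9. The second NKX2-1 entry held 11 and the second PAX9 entry, which is not printed, 12. The median over all promoters was 14. CTTGAG or its reverse was found in 12.4% of promoters, CAAGTG in 11.5% and TGTTTAC in 3.42%, each counted on both strands. The second PAX9 entry also held an NKX2 core, as CTCAAG at chr14:36661898-36661903. ACAAAG (a SOX core, in 16.1% of promoters) and CACGTG (an E box, in 7.26%) were not in the 4 printed windows.

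At the 3 genes together, few contacts were called in naive cells and, at a score of 5, most were called at day 14. Naive cells had 5 of the 127 called (3.94%), day 1 had 9 (7.09%), day 3 had 23 (18.1%), day 5 had 17 (13.4%), day 7 had 9 (7.09%), day 10 had 16 (12.6%) and day 14 had 28 (22.0%). H9 had 23 (18.1%), NE 20 (15.7%) and DE 17 (13.4%). The share lay below the background in naive cells and at days 1 and 7. It lay above it at days 3, 5, 10 and 14 and in H9, and below it again in NE and DE. At a score of 3, H9 had 42 and day 14 had 41, so which of them came first depended on the threshold. The course from naive to day 14 was not steady, since day 7 had as few calls as day 1.

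Between naive cells and day 14, 28 contacts were gained, 5 were lost and none was called in both. The background shares were 10.6% gained, 9.34% lost and 0.682% kept. From day 14 to H9 the 3 genes gained 19 contacts, lost 24 and kept 4, against 12.1%, 10.3% and 0.967% of all contacts. From day 14 to NE they gained 18, lost 26 and kept 2 (16.7%, 9.98% and 1.26% of all), and from day 14 to DE they gained 17, lost 28 and kept none (15.1%, 10.1% and 1.13% of all). These comparisons share the day 14 scores and are set side by side only.

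**Figure D1:**
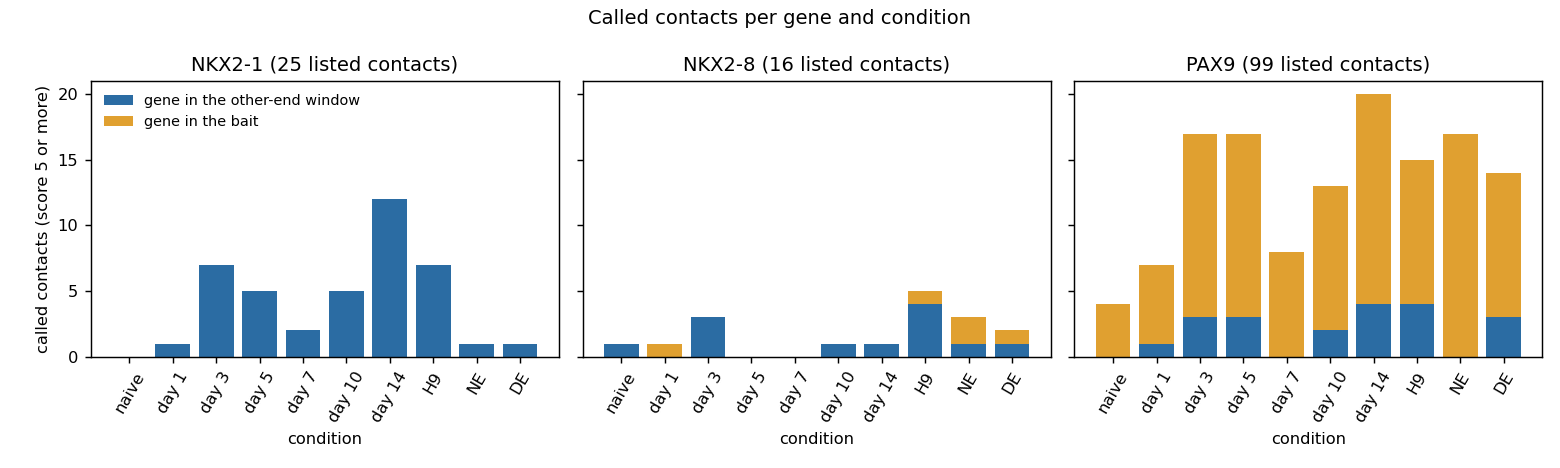
Called contacts (score of 5 or more) of NKX2-1, NKX2-8 and PAX9 in each of the 10 conditions, with 1 pooled score per condition; blue bars count contacts with the gene in the other end and orange bars those with the gene in the bait. NKX2-1 has only blue bars, from 0 in naive cells to 12 at day 14, NKX2-8 never passes 5, and most PAX9 calls come from baits at the gene.

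NKX2-1 contacts were absent from the calls in naive cells and most frequent at day 14. Naive cells had 0 calls, day 1 had 1, day 3 had 7, day 5 had 5, day 7 had 2, day 10 had 5 and day 14 had 12. H9 had 7, and NE and DE had 1 each. Day 14 stood first with 48% of the 25 contacts, day 3 and H9 followed with 28% each, and NE and DE were at 4% although their share over all contacts was the highest of the 10 conditions. All 12 day 14 calls were gained from naive cells. Of these 12, H9 kept 2 and neither NE nor DE kept any, and the single call of NE and that of DE were on other contacts. Few day 14 calls were kept over all contacts within chromosomes too. Of 20498 such calls, H9 kept 1762, NE 2299 and DE 2057.

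The median score was lowest in naive cells and highest at day 14, as was the number of calls, which rests on the same scores. It was higher in NE and DE (1 call each) than at day 7 (2 calls). In naive cells the 25 scores ran from 0 to 2.75 with a median of 0.428. The medians of days 1, 3, 5, 7, 10 and 14 were 1.13, 2.89, 2.68, 1.13, 2.13 and 4.93. The median was 3.06 in H9, 1.72 in NE and 1.43 in DE. The background medians were 0.929 for naive cells, 1.02 for day 14, 1.08 for H9, 1.42 for NE and 1.29 for DE. The NKX2-1 medians of NE and DE thus lay above those of the background. At day 14, 17 of the 25 NKX2-1 scores were 3 or more, against 0 in naive cells and 7 each in NE and DE. Of all 182303 contacts within chromosomes, 37148 reached 3 at day 14, 33102 in naive cells, 53206 in NE and 49513 in DE. At a score of 3, NKX2-1 was thus near the share over all contacts in NE and DE.

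Most NKX2-1 contacts reached into and just before PAX9. Baits in the body of PAX9 made 6 contacts with NKX2-1, and baits between NKX2-8 and PAX9 made 12. The PAX9 body baits had 0, 0, 3, 5, 1, 2 and 3 calls from naive to day 14, 1 in H9 and 0 in NE and DE. The baits between the genes had 8 calls at day 14, 3 at each of days 3 and 10, 2 in H9, 1 each at day 1 and in NE and DE, and 0 in naive cells and at days 5 and 7. Within this stretch, 11 baits from chr14:36646639 to the baits in the PAX9 body made 17 of the 25 contacts and 10 of the 12 day 14 calls. Many of them adjoin each other, so they are not independent measurements.

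The highest score of the 3 genes belonged to bait chr14:36661411-36663056, in the body of PAX9, with the window upstream of NKX2-1 139 kb away. This bait is labelled as a poised enhancer and also holds the second PAX9 promoter entry (chr14:36661610-36661909). Its scores in naive cells and at days 1, 3, 5, 7, 10 and 14 were 1.18, 2.34, 7.74, 6.17, 2.82, 1.26 and 12.9, and those in H9, NE and DE were 0.937, 0.919 and 0. It was high at day 14, called at days 3 and 5, and low in H9 and both differentiated cell types.

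Bait chr14:36663677-36663950, also in PAX9, contacted both NKX2-1 windows. With the gene window its scores in naive cells and at days 1, 3, 5, 7, 10 and 14 were 0, 2.59, 10.4, 6.67, 1.13, 2.35 and 5.01, and 7.41, 1.72 and 1.77 in H9, NE and DE. It was the only NKX2-1 contact called in 4 conditions. With the upstream window the same bait scored 0, 2.56, 11.5, 5.12, 1.11, 0 and 4.93 over the HNES1 course and 0, 2.67 and 3.78 in H9, NE and DE. Both were highest at day 3. The day 14 scores of 5.01 and 4.93 lie on either side of the threshold.

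The next bait, chr14:36663951-36664981, peaked at other times. With the gene window it scored 0.766, 4.84, 1.51, 10.3, 7.83, 4.74 and 10.9 from naive to day 14, then 0, 2.29 and 3.20 in H9, NE and DE. With the upstream window it scored 0.755, 1.01, 3.28, 7.67, 2.96, 11.4 and 3.85, then 2.59, 4.95 and 1.40. These adjacent fragments, 141 to 147 kb away, had their highest scores on different days (3, 10 or 14), and all 4 contacts scored under 1 in naive cells.

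Before PAX9, bait chr14:36648707-36649000 scored 0.787, 2.79, 7.18, 1.99, 3.20, 5.73 and 8.48 with the gene window from naive to day 14, and 4.50, 3.45 and 0.849 in H9, NE and DE. Bait chr14:36654764-36655315 scored 0, 5.96, 4.18, 4.55, 1.01, 5.21 and 8.26 with the upstream window, and 4.83, 4.59 and 1.43 in H9, NE and DE. The latter gave the single NKX2-1 call at day 1. Both were highest at day 14, and both stayed under 5 in H9, NE and DE.

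**Figure D2:**
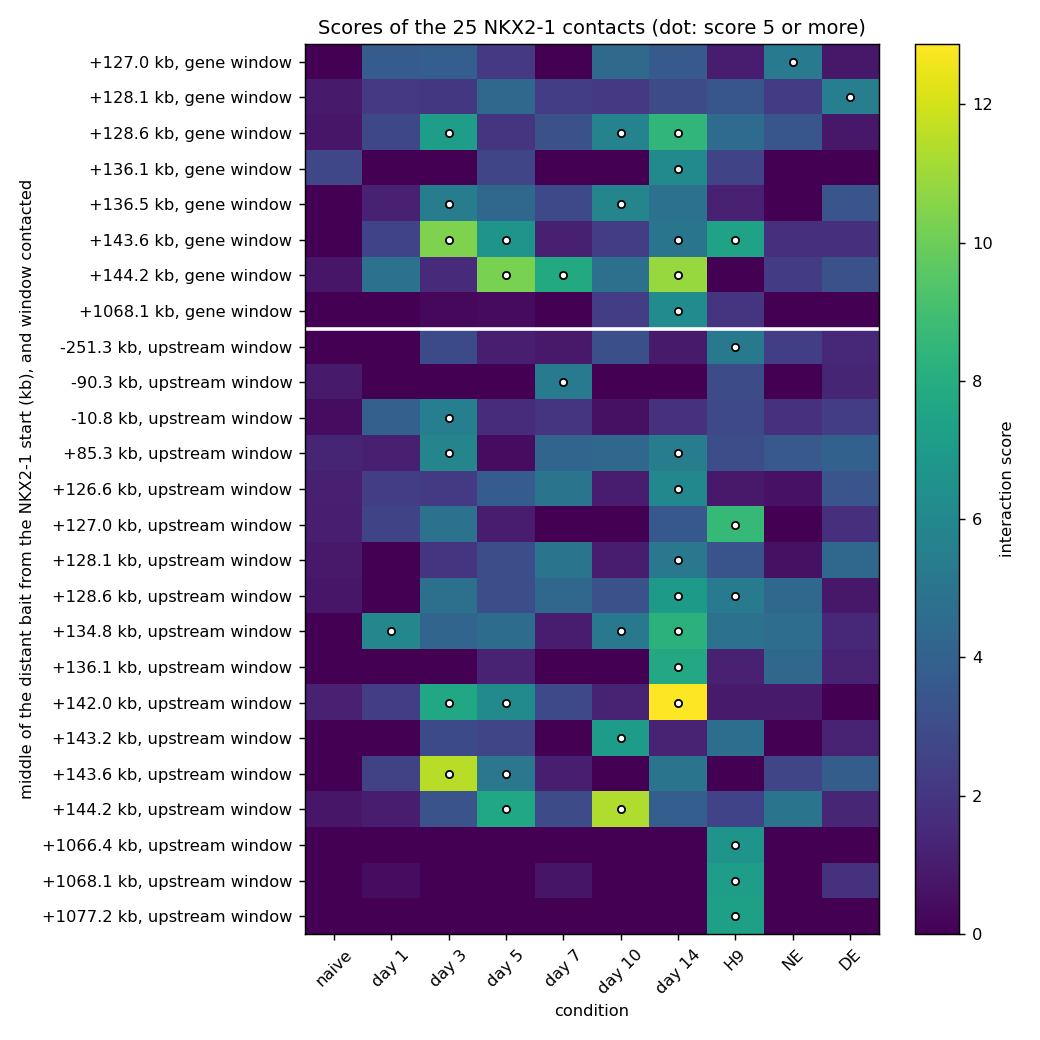
Interaction scores (colour, from 0 to 12.9) of the 25 NKX2-1 contacts in the 10 conditions, with a row per contact named by the distance in kb from the NKX2-1 start to the middle of the bait and by the window contacted; dots mark scores of 5 or more and the white line divides the gene window from the upstream window. No row has a dot in naive cells, 12 have one at day 14, and the 3 rows at the foot, with baits at FOXA1, have theirs in H9.

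Both NKX2-1 windows had their highest count at day 14, and they differed in H9. The gene window, with 8 contacts, had 0, 0, 3, 2, 1, 2 and 5 calls from naive to day 14 and 1 each in H9, NE and DE. The upstream window, with 17 contacts, had 0, 1, 4, 3, 1, 3 and 7 from naive to day 14, 6 in H9 and 0 in NE and DE. The next window upstream (chr14:36525675-36531006), outside the rule, had 13 contacts, with 0, 1, 3, 4, 3, 3 and 3 calls from naive to day 14, 2 each in H9 and NE and 1 in DE. Among the 167 scores of 5 or more at the 3 genes, 83 were under 6 and 9 reached 10. Another 62 scores lay from 4 to under 5, and the values nearest the threshold were 5.01 inside it and 4.97 outside it.

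FOXA1, which encodes a pioneer factor of endoderm and lies 910 kb beyond PAX9, supplied the longest contacts of the 3 genes. The 6 baits at FOXA1 made 11 contacts with them, with 0, 1, 2, 0, 0, 1 and 3 calls from naive to day 14, 6 in H9, 0 in NE and 2 in DE. NKX2-1 had 4 of these, 1 called at day 14 and 3 in H9. The 3 H9 contacts joined FOXA1 baits to the upstream window. Those of baits chr14:37586172-37587076 and chr14:37597277-37597676 scored 0 in the 9 other conditions, and that of bait chr14:37587512-37589094 scored 0 in 6. With these 3, the median distance of the H9 calls of NKX2-1 was 254 kb, against 133 kb at day 14. The contact of bait chr14:37591109-37592183 with the window at the PAX9 start (chr14:36656990-36661410), over 932 kb, scored 0, 5.42, 0, 0.979, 0, 0 and 6.77 from naive to day 14 and 6.57, 0.756 and 0 in H9, NE and DE. Its calls were those of day 1, day 14 and H9, and 5 of the 10 scores were 0.

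**Figure D3:**
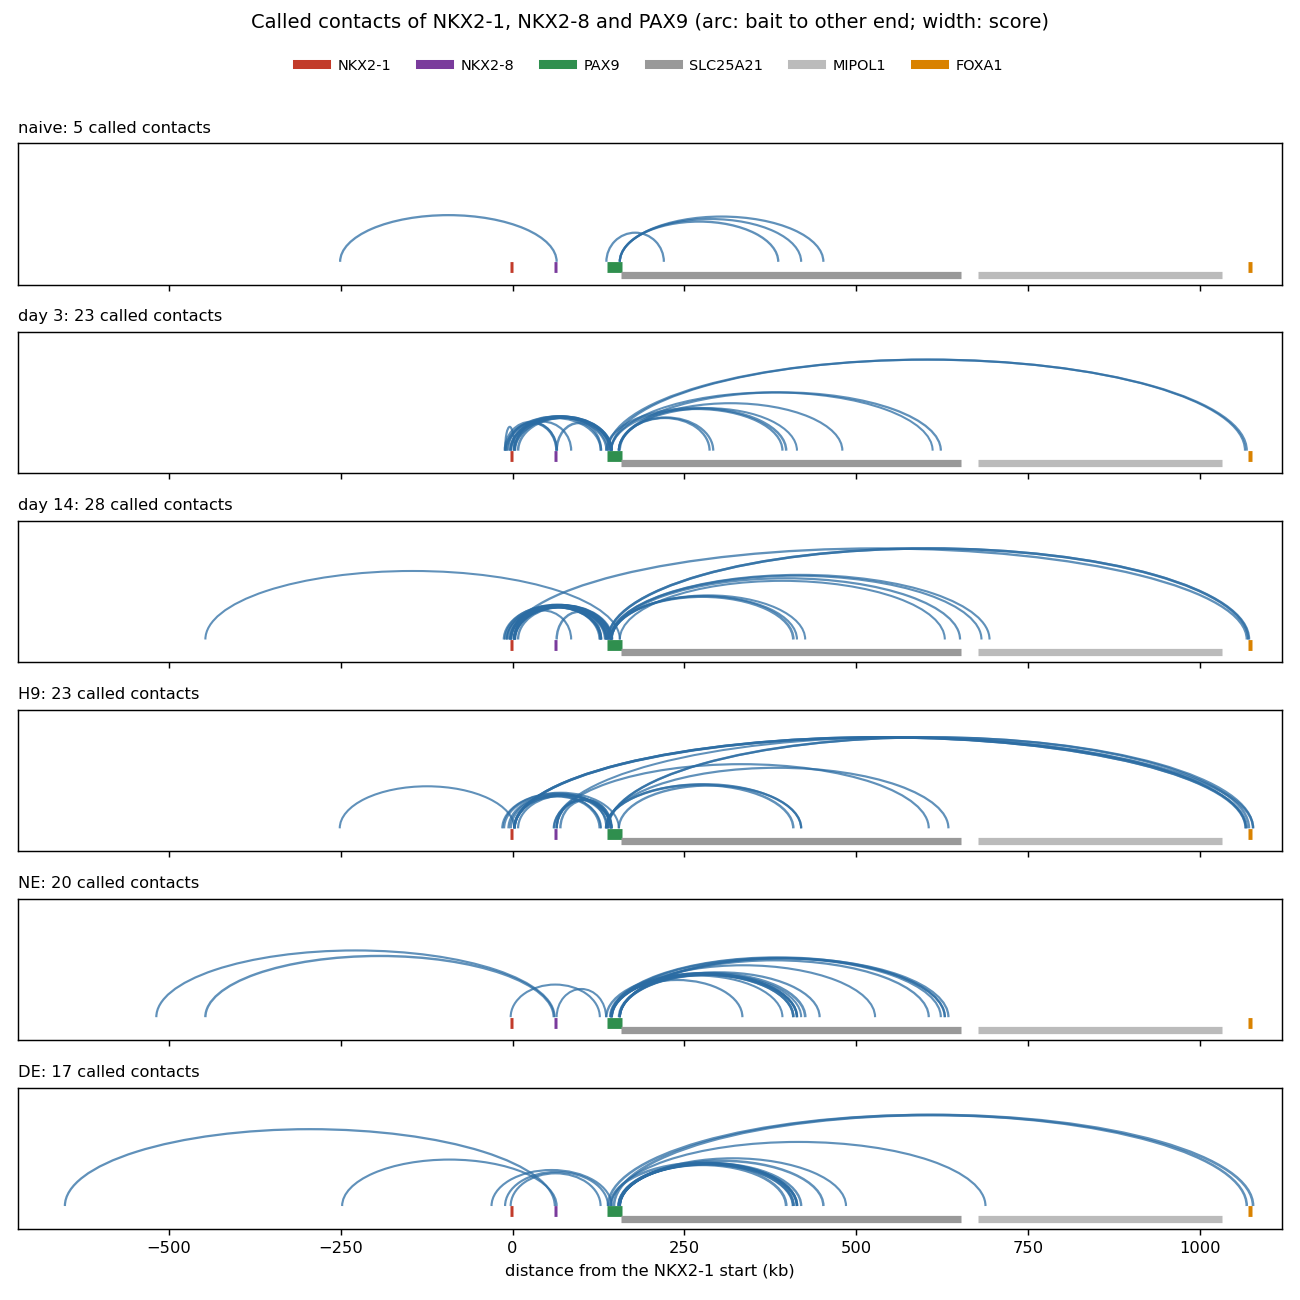
Called contacts of NKX2-1, NKX2-8 and PAX9 in 6 conditions, drawn as arcs from bait to other end, with line width following the score; the horizontal axis is the distance from the NKX2-1 start in kb and coloured blocks are gene bodies. The short arcs over the stretch from NKX2-1 to PAX9 are missing in naive cells, dense at day 3, day 14 and in H9, and sparse in NE and DE. In NE and DE, arcs from PAX9 into SLC25A21 prevail. Arcs that join PAX9 baits to the NKX2-1 windows number 4 at day 3, 5 at day 14 and 1 in H9.

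NKX2-8 had the fewest contacts of the 3 genes and its highest count in H9. Its 16 contacts had 1, 1, 3, 0, 0, 1 and 1 calls from naive to day 14. H9 had 5 (31.2%), NE 3 and DE 2. With the gene in the other end (11 contacts) the counts were 1, 0, 3, 0, 0, 1 and 1 from naive to day 14, 4 in H9 and 1 each in NE and DE. The 3 NKX2-8 baits with contacts made 5, all over at least 507 kb, of which 1 was called at day 1, 1 in H9, 2 in NE and 1 in DE.

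The NKX2-8 contact with the highest score came from bait chr14:36509360-36509492, a 133 bp fragment on the far side of NKX2-1 in the body of SFTA3, and reached the window chr14:36581889-36587000. It scored 0, 0, 9.14, 4.41, 1.71, 1.87 and 1.64 from naive to day 14 and 4.54, 1.20 and 2.24 in H9, NE and DE. This bait was the only one that contacted all 3 genes. Bait chr14:36648707-36649000, described above with NKX2-1, scored 1.79, 1.10, 7.05, 0, 0, 0.627 and 6.82 with the NKX2-8 window from naive to day 14, and 1.67, 0.423 and 0 in H9, NE and DE. Its day 3 and day 14 scores were again the high ones. Bait chr14:36663677-36663950 in PAX9 scored 4.75 at day 14 and 6.73 in H9 with the same window, and was at 3.44 or below in the other 8 conditions.

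PAX9, with 8 baits and the longest body (21795 bp against 3836 bp for NKX2-1), had the most contacts. Naive cells had 4 of its 99 contacts called (4.04%), day 1 had 7 (7.07%), days 3 and 5 had 17 each (17.2%), day 7 had 8 (8.08%), day 10 had 13 (13.1%) and day 14 had 20 (20.2%). H9 had 15 (15.2%), NE 17 (17.2%) and DE 14 (14.1%). Between naive cells and day 14 it gained 20, lost 4 and kept none. From day 14 to NE it gained 15, lost 18 and kept 2, and to DE it gained 14 and lost 20. PAX9 thus had 17 and 14 calls in NE and DE, where NKX2-1 had 1 each, but on contacts that were mostly not those called at day 14. The same held over all contacts within chromosomes. From day 14, NE gained 30373 of those and kept 2299, and DE gained 27506 and kept 2057.

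The side that the PAX9 baits contacted differed between conditions. On the NKX2-1 side (31 contacts) they had 0 calls in naive cells, then 2, 6, 9, 5, 6 and 9 at days 1, 3, 5, 7, 10 and 14, 7 in H9, and 1 each in NE and DE. On the other side (54 contacts) lies SLC25A21, a gene for a mitochondrial carrier whose body overlaps the end of PAX9. There the PAX9 baits had 4 calls in naive cells, then 4, 8, 5, 3, 5 and 7 at the same days, 4 in H9, 16 in NE and 10 in DE. From day 14 to NE the SLC25A21 side gained 14 contacts, lost 5 and kept 2, while the NKX2-1 side gained 1 and lost 9. From day 14 to DE the SLC25A21 side gained 10 and lost 7, and the NKX2-1 side again gained 1 and lost 9. In NE 29.6% of the contacts on the SLC25A21 side were called, and in DE 18.5%, against 17.9% and 16.2% of all contacts within chromosomes.

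**Figure D4:**
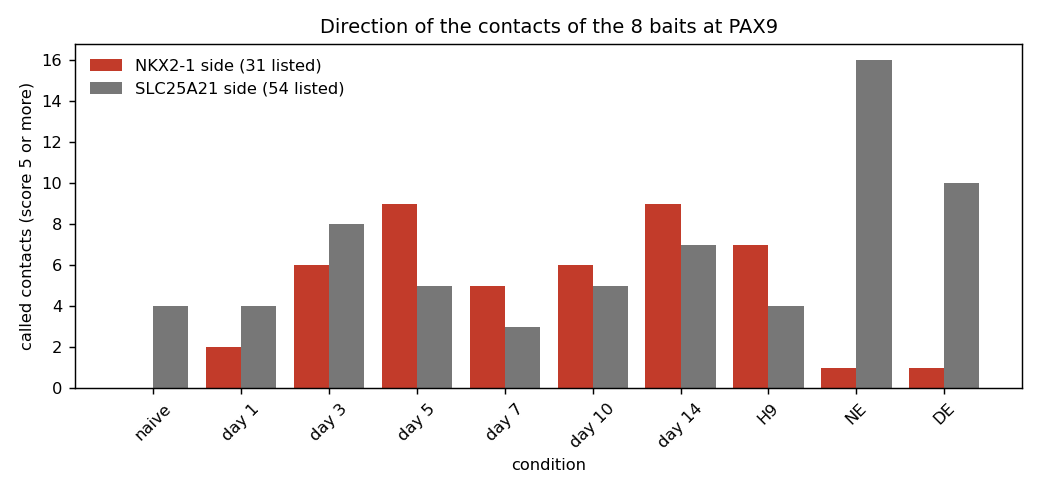
Called contacts (score of 5 or more) of the 8 baits at PAX9 in each of the 10 conditions, split by the side of the gene on which the other end lies, with 1 pooled score per condition. The red bars (NKX2-1 side) go from 0 in naive cells to 9 at days 5 and 14 and to 1 in NE and DE, and the grey bars (SLC25A21 side) are tallest in NE at 16.

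Baits at the start and at the end of PAX9 differed. The 6 baits from just before the gene to chr14:36664981 made 26 of the 31 contacts on the NKX2-1 side, with 0, 2, 6, 7, 3, 6 and 8 calls from naive to day 14, 7 in H9 and 1 each in NE and DE. On the SLC25A21 side (30 contacts) the same 6 baits had 1, 2, 3, 1, 2, 2 and 6 calls from naive to day 14, 3 in H9, 10 in NE and 2 in DE. The 2 baits near the PAX9 end (chr14:36674225-36675659 and chr14:36675660-36676976) made 5 contacts on the NKX2-1 side and 24 on the SLC25A21 side. Their SLC25A21 side had 3, 2, 5, 4, 1, 3 and 1 calls from naive to day 14, 1 in H9, 6 in NE and 8 in DE. Of the 24, 20.8% were called at day 3, 25% in NE and 33.3% in DE. The shares of all contacts within chromosomes were 12.4%, 17.9% and 16.2%.

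Within SLC25A21 the contacts gathered on 3 adjoining windows, chr14:36926106-36931271, chr14:36931272-36936771 and chr14:36936772-36943429, each of which was reached by 6 of the 8 PAX9 baits. They had 6, 11 and 8 calls summed over the 10 conditions. With the windows on either side, from chr14:36903388 to chr14:36948561, there were 24 contacts. They had 2, 1, 3, 2, 1, 2 and 3 calls from naive to day 14, 3 in H9, 8 in NE and 7 in DE. The contact of bait chr14:36674225-36675659 with the middle window scored 1.13, 3.65, 5.08, 1.99, 4.73, 2.46 and 3.32 from naive to day 14 and 4.82, 5.88 and 7.60 in H9, NE and DE. It lay above 1 in every condition and was highest in DE.

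Bait chr14:36675660-36676976 scored 1.58, 4.20, 4.56, 6.48, 0.696, 5.28 and 4.21 with that window from naive to day 14 and 3.17, 6.25 and 5.95 in H9, NE and DE. It was 1 of only 2 contacts of the 3 genes called in 4 conditions. With the following window the same bait scored 5.62, 0.855, 0, 6.55, 3.64, 4.34 and 1.45 from naive to day 14, and 3.27, 4.89 and 6.78 in H9, NE and DE. That contact had its calls in naive cells, on day 5 and in DE, and was the only one of the 10 contacts called in 3 or more conditions that was called in naive cells. The highest DE score of the 3 genes, 11.0, belonged to bait chr14:36674225-36675659 with the first of these windows.

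From the other direction, the window at the PAX9 start was contacted by baits in SFTA3, whose body overlaps that of NKX2-1, and at FOXA1. Baits in SFTA3 made 8 contacts with PAX9, with 0, 0, 1, 3, 0, 1 and 2 calls from naive to day 14, 2 in H9, 0 in NE and 1 in DE. The contact of bait chr14:36509493-36510666 with the start window, over 149 kb, scored 0, 2.18, 6.93, 5.41, 3.62, 1.21 and 10.7 from naive to day 14, and 1.76, 4.51 and 1.81 in H9, NE and DE. Its 3 calls fell on days 3, 5 and 14, as did those of the NKX2-1 contact with the highest score.

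Some contacts joined these genes directly. The 9 contacts between PAX9 baits and the NKX2-1 windows had 0, 0, 4, 5, 1, 3 and 5 calls from naive to day 14, 1 in H9 and 0 in NE and DE. These 9 include contacts of the baits just before the PAX9 body, also counted above among the baits between NKX2-8 and PAX9. The 4 contacts between PAX9 baits and NKX2-8 were called 3 times in H9 and 1 time in NE, and in no HNES1 state before differentiation.

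Few contacts were called in more than 1 condition. Of the 127, 99 (78.0%) were called in 1 condition, 28 (22.0%) in 2 or more and 10 (7.87%) in 3 or more. Of all contacts within chromosomes 14.2% were called in 2 or more and 4.62% in 3 or more. NKX2-1 had 10 of 25 (40%) called in 2 or more, PAX9 23 of 99 (23.2%) and NKX2-8 1 of 16 (6.25%). No contact of the 3 genes was called in 5 or more conditions, against 1.08% of all contacts.

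**Figure D5:**
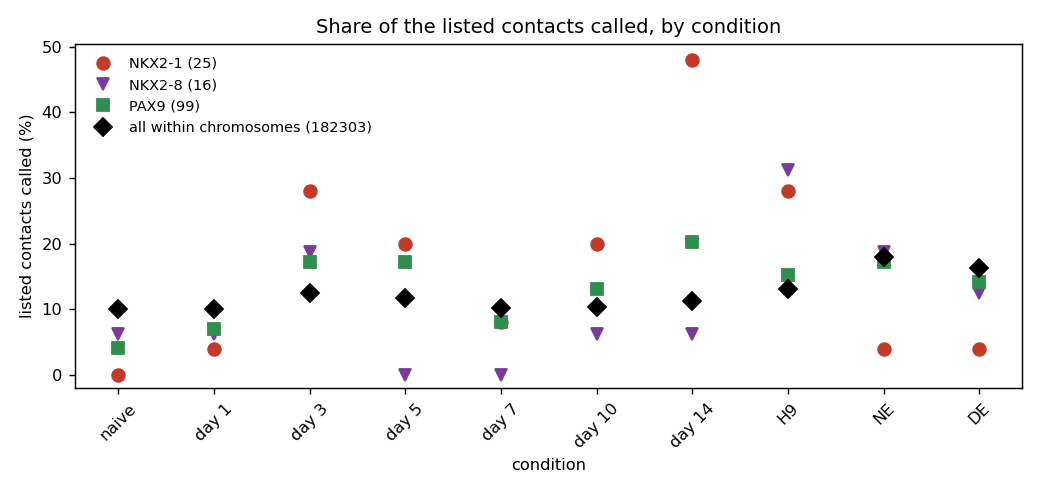
Share of the listed contacts of each gene called in each condition (percent, score of 5 or more), with the share of all 182303 contacts within chromosomes as black diamonds. NKX2-1 (circles) runs from 0% in naive cells to 48% at day 14 and 4% in NE and DE, while the black diamonds lie between 10.0% and 17.9%.

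The genes around the 3 were counted by contacts with the gene in the other end. Of 20 other protein-coding genes within 2 Mb, 14 had any such call. From naive to day 14 the count was higher in 3, lower in 6 and the same in 11, and these 11 include the 6 genes with no call in any condition. SLC25A21 counts were 10 (naive), 12 (day 14), 8 (H9), 22 (NE) and 19 (DE). Calls from PAX9 baits made up 4 (naive), 5 (day 14), 4 (H9), 16 (NE) and 9 (DE) of these. MIPOL1, the next gene, had 10, 9, 7, 28 and 28, and FOXA1 had 0, 1, 1, 0 and 0. Both long genes were highest in NE and DE, as were the PAX9 contacts on their side, which are part of these counts. The share of all contacts within chromosomes called was also highest there (17.9% and 16.2%, against 11.2% at day 14). Over the 13274 protein-coding genes with such a call, 25.2% had more calls at day 14 than in naive cells and 21.7% had fewer, and the median change was 0.

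Related genes were counted in the same way, from lists chosen with earlier results of these data known. Of the other 5 NKX2 genes, 2 had more called contacts at day 14 than in naive cells and none had fewer. NKX2-2, a factor of the ventral neural tube, went from 1 to 9 and was at 15 in H9, and NKX2-4 went from 0 to 1. Of the other 8 PAX genes 7 had more and none fewer, with a median change of 2. PAX3, a neural crest and muscle factor, went from 7 to 16, and PAX5, a B cell factor, from 6 to 13.

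Of 15 further ventral forebrain genes, 11 of them with any such call, 5 had more and 1 had fewer, and SIX6, an eye and hypothalamus factor, went from 0 to 10. Of 11 further thyroid, lung and foregut genes 4 had more and none fewer, with GATA6, an endoderm factor, from 2 to 7 and TSHR, the thyrotropin receptor, from 0 to 3. Of 9 further genes of the pharyngeal pouches and teeth, 7 of them with any such call, 3 had more and 1 fewer. HOXA3, needed for pharyngeal organs, went from 12 to 36 and EYA1, a phosphatase and transcriptional cofactor, from 5 to 1. The median change was 0 in the NKX2, forebrain, foregut and pharyngeal lists, as over all linked genes. In NE and DE, the mean count per gene was 0.60 and 0.867 for the forebrain list and 1.27 and 1.09 for the foregut list, against 2.07 and 1.27 at day 14.

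Among all linked genes, with the 1 kb margin, few gained more than the 12 calls of NKX2-1. As NKX2-1 was chosen by its called contacts in these same data, a high rank was built in and only describes it. OTP, SIX6 and ISL1, below, were also named with earlier results known. From naive to day 14, 11 genes gained more and 3 gained as many, and 4 genes had 0 calls in naive cells and 12 or more at day 14, NKX2-1 included. Without the margin NKX2-1 had 0 calls in naive cells and 5 at day 14, and its rank was not computed on that basis. OTP, a hypothalamus factor, had 2 calls (naive), 15 (day 3), 10 (day 14), 10 (H9) and 1 each (NE and DE). SIX6 had 0, 2, 10, 5, 2 and 1 in the same order. ISL1, a factor of motor neurons and heart, had 0, 1, 11, 8, 4 and 9. NKX2-1, OTP and SIX6 had few calls in NE and in DE, while ISL1 had 9 in DE.

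The 5 genes whose calls followed NKX2-1 most closely over the 10 conditions, among 3184 genes with at least 10 calls, were HOXD3 (Pearson's r of 0.90), HOXA10-HOXA9, a readthrough entry (0.89), TBC1D7-LOC100130357 (0.89), HOXA10 (0.88) and CDC20B (0.88). HOXA10 had 0 calls (naive), 17 (day 3), 27 (day 14), 27 (H9), 4 (NE) and 8 (DE). HOXD3 had 1, 4, 8, 6, 4 and 2. PAX9 reached 0.79 and NKX2-8 0.42, and 18 of the ranked genes reached 0.8. The HOXA10 entries share contacts, and the 10 conditions share the capture design and differ in their number of calls, so these values only describe likeness. Spearman's rho and Pearson's r of summed scores each kept 2 of the 5 genes, HOXA10 and its readthrough entry.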

How the data were processed

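Poised Enhancer Capture Hi-C was measured in 20 libraries of 10 conditions. The deposited matrix held the authors' CHiCAGO interaction score, per the labels, with 1 score per contact and condition from both libraries. A deposited distance in bp was used as given. Coordinates were on GRCh38 per the submitters' processing notes; the aligner is not given in the sources used here, nor are the filters and the version of the caller. Depth per library was unknown, so no interval was computed.

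A contact was linked to a gene where its bait or other end overlapped the RefSeq body widened by 1 kb, within the chromosome, and called at a score of 5 or more. Scores were not rescaled. Contacts between chromosomes were left out of the counts. Likeness to NKX2-1 was Pearson's r of called contacts (gene in the other end) over the 10 conditions. Overlaps and likeness were tested on simulated data. As each condition has 1 pooled score, conditions were not tested against each other.

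The genes, lists and rules were chosen with earlier results of these data known. Named were the 3 genes, protein-coding neighbours within 2 Mb, the 5 most alike genes, OTP, ISL1 and SIX6, the 2 genes per list with the largest change from naive to day 14, and, per gene, the 3 contacts with the highest score and those called in 3 or more conditions. Other values were chosen after they were seen. Alternatives were scores of 3 and 10, no margin and 10 kb, each bait pair once, merged other ends, the same number of top contacts per condition, a score margin of 1, Spearman's rho and summed scores. Python 3.11.15, pandas 2.3.3, numpy 2.4.6 and matplotlib 3.10.9 were used.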

Additional observations from a re-analysis of the deposited data

Results flagged for a closer look

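Contacts between chromosomes lie outside the counts above and were looked at because they are a signal in data that no comparison used. With NKX2-8 or PAX9 at either end, 7 were called in naive cells, 13 at day 1, 8 at day 3, 16 at day 5, 5 at day 7, 8 at day 10, 12 at day 14, 16 in H9, 51 in NE and 71 in DE. NKX2-1 had 0 in every condition, and it holds no bait. Of these contacts 191 had the gene in the bait and 16 in the other end. The share of all contacts between chromosomes called was likewise highest in NE (26.6%) and DE (32.1%), against 5.10% (naive), 5.38% (day 14) and 6.59% (H9).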

How the results depend on the processing

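The number of calls depended on the score threshold and on the width of the gene, while counting each bait pair once and merging other ends within 10 kb left all counts within 1.5 times. At a score of 3 the contacts of the 3 genes numbered 23 at day 1, 33 at day 5, 21 at day 7, 27 at day 10, 41 at day 14, 42 in H9, 37 in NE and 31 in DE; with the gene in the other end they numbered 7 at day 1, 20 at day 3, 17 at day 5, 9 at day 7, 14 at day 10, 24 at day 14, 28 in H9, 10 in NE and 11 in DE. At a score of 10 they numbered 0, 0, 2, 1, 0, 2 and 3 from naive to day 14 and 0, 0 and 1 in H9, NE and DE (0 in DE with the gene in the other end), and 3 contacts were gained and 0 lost between naive cells and day 14. Without the margin, H9 had 14 contacts, and with the gene in the other end days 1, 5, 7, 10 and 14 and H9 had 1, 5, 1, 5, 10 and 9. With 10 kb, naive cells had 11 contacts, day 3 had 35, day 7 18, H9 35 and DE 26, and 11 were lost to day 14; in the other end naive cells and days 1, 3, 5, 7 and 10 had 2, 5, 21, 13, 9 and 15, day 14 24, H9 27 and NE 6. H9 thus passed day 14 in both counts at a score of 3 and, with the gene in the other end, with 10 kb (24 against 27). NKX2-1 alone had 0 calls in naive cells and 5 at day 14 without the margin, and 0 and 17 with 10 kb. With the same number of top contacts in every condition (18272), NE had 13 contacts, and 0 in the other end, and DE 3 in the other end. With a score margin of 1, 17 contacts were gained and 2 lost. Of the 5 genes most like NKX2-1, 2 stayed with Spearman's rho and 2 with summed scores. The causes were not tested. No paired analysis was possible because each deposited score pools both libraries of a condition, and for the same reason no replicate could be left out. Depth was unknown in every condition.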
